A study of Caenorhabditis elegans with 2 samples.

Results

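In late Caenorhabditis elegans embryos, 760 of the 2575 reproducible summits of CEH-18 binding lay in the promoter window of 1 protein-coding gene and of no other. A summit is the base of highest signal in a peak of the chromatin immunoprecipitation and sequencing (ChIP-seq) data. The window ran from 1000 bp upstream to 200 bp downstream of the 5′ end of the gene, and summits within 200 bp of a tRNA, snoRNA or snRNA gene were set aside. The 760 summits, 29.5% of the list, belonged to 718 genes. Of the other summits, 325 lay in windows of more than 1 protein-coding gene (shared promoters), 1234 lay in no such window (outside promoters) and 256 lay near a small RNA gene.

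CEH-18 is a POU-class homeodomain transcription factor. Such proteins bind DNA with a POU-specific domain and a homeodomain joined by a linker, and the class is known for its recognition of an octamer motif. In the worm, ceh-18 is known for its role in the sheath cells of the somatic gonad, where it acts in oocyte meiotic arrest, and in the differentiation of the epidermis. Many worm transcripts receive a trans-spliced leader, so that the annotated 5′ end of a gene is often the splice site and transcription starts farther upstream. A promoter window that contains 1 protein-coding gene lets a summit be assigned by position, although position does not show that the gene is regulated.

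The embryos were hermaphrodites of strain OP533, genotype unc-119(tm4063) III with the integrated transgene wgIs533, from which CEH-18 with a C-terminal GFP-FLAG tag is stably expressed. They were collected 3 h after synchronisation by bleaching, and whole organisms were used, so the signal is a mixture over all cell types that make the protein. Both biological replicates belonged to this 1 group and carried the transgene, so there was no comparison between conditions or genotypes. Immunoprecipitation used an antibody against GFP according to the description, while the antibody field of the labels names ceh-18. The data were peak lists and no reads, so depth is unknown and the signal, whose scale is not stated, is the value given by the authors.

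The sequences under the strongest summits show what the bound promoters looked like. Each line gives the summit base and 50 bases on either side, 5′ to 3′ on the strand of the gene, from build ce11 (WBcel235), for members among the strongest 20 in which this stretch touched no annotated exon. Capitals mark GAGAGA or its complement TCTCTC, the tested word with the clearest difference from the flanks of the summits.
K12H4.5, chrIII:8043915-8044015, plus strand: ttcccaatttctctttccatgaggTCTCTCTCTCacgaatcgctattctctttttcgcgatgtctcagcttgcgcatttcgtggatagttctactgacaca
hsp-1, chrIV:17278539-17278639, plus strand: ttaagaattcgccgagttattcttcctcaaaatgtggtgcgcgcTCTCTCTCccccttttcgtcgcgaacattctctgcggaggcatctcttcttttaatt
ain-1, chrX:16612547-16612647, plus strand: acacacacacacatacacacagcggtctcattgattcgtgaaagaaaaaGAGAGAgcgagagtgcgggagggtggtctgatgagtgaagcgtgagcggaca
bet-2, chrX:10568717-10568817, plus strand: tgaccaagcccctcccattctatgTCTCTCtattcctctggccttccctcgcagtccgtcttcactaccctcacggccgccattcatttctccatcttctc

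Each of these has GAGAGA or TCTCTC within 50 bp of the summit, on one or the other strand of the gene. Strong summits without the word are equally part of the set. The next stretches hold no GAGAGA, and they belong to cdc-48.1, rpl-3, rpl-35 and tos-1, of which the signals were 911, 882, 732 and 746.
cdc-48.1, chrII:10563517-10563617, minus strand: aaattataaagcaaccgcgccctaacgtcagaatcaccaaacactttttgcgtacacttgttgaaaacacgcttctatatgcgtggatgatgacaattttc
rpl-3, chrIII:3867530-3867630, plus strand: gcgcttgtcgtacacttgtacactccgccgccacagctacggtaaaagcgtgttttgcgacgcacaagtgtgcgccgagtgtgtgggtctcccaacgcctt
rpl-35, chrIII:7854633-7854733, plus strand: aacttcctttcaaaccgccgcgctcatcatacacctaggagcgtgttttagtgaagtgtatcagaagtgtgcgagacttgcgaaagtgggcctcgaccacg
tos-1, chrV:9344259-9344359, minus strand: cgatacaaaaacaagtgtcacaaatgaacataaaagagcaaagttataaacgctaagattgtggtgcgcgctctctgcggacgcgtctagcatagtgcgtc

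A second word, CTGCGTCT, was rare beside the summits and frequent at them. The next stretches are from strong members in which it falls within 50 bp of the summit, chosen after their values were seen. Capitals mark CTGCGTCT, GAGAGA and their complements.
nhr-1, chrX:17513661-17513761, plus strand: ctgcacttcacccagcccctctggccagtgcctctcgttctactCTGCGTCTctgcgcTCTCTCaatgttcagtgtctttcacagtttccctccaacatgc
ntl-11, chrIV:15471554-15471654, minus strand: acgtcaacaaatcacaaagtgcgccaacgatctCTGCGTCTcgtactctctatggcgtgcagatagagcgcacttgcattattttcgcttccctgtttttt
ZK1290.5, chrII:7529265-7529365, plus strand: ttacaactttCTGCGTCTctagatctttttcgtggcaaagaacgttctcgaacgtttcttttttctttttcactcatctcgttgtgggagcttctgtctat

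The octamer ATGCAAAT, the best known POU site, was present within 75 bp of only 6 member summits. For the members below it fell inside the printed stretch and is in capitals, as ATGCAAAT or its complement ATTTGCAT, together with any copy of the other words.
K06H7.2, chrIII:8093245-8093345, plus strand: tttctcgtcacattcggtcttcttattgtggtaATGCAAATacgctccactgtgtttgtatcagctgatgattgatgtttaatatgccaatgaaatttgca
mrpl-55, chrIV:443766-443866, plus strand: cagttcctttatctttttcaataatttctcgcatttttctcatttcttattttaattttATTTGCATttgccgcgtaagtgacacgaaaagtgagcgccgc
mak-2, chrIV:884891-884991, plus strand: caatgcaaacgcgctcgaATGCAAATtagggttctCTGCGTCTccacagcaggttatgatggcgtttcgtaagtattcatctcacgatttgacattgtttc

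None of the 6 octamer members was among the strongest. The summit of K06H7.2 had a signal of 186, with 88.4 in replicate 1 and 98.8 in replicate 2, and that of mrpl-55 had 177, with 77.8 and 96.3. The others were K04B12.2 (167), EGAP1.1 (155), mak-2 (152) and F26F4.8, the weakest. Only the first 2 of these signals lay above the median of all members, which was 172.

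Word frequencies were compared at the 760 summits, within 75 bp, with the window of the same width centred 500 bp away. The words were chosen with earlier results of these data known. The p-values of the word tests therefore describe this list and are not independent support. GAGAGA or TCTCTC was present at 331 summits (43.6%, 95% exact binomial interval 40% to 47.2%), against 7.3% in the mean of both flanks. This was a ratio of 5.96, and the word was at the summit alone in 304 members and in the flank at lower coordinates alone in 35 (exact McNemar test, two-sided, adjusted p = 1.8e-53). CTGCGTCT or its complement AGACGCAG was present at 120 summits (15.8%, 13.3% to 18.6%) against 0.855% in the flanks, a ratio of 18.5 (same exact test, adjusted p = 1.2e-28). In windows of the same width centred 278 bp upstream of the 19255 protein-coding genes with no member, the median distance of the members, GAGAGA was in 8.93% and CTGCGTCT in 1.3%, close to the flanks.

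In all, 10 of the 16 words passed the test against the flank, which is 62.5%, with 5 more frequent at the summits and 5 less frequent. GGGCGG, known as the GC box, was more frequent at the summits, in 12.2% against 2.37% (exact McNemar test, adjusted p = 1.0e-12). So was CANNTG, the E-box of basic helix-loop-helix proteins, in 52.9% against 42.1% (exact test, adjusted p = 5.2e-07). Its palindromic form CACGTG, which a search for the E-box also finds, was in 4.74% against 2.83% (exact test, adjusted p = 0.015), and did not pass with 3 of the alternative windows and flanks. The less frequent words were mostly AT-rich. The run TTTTTT was in 28.7% of summits against 54.7% of flanks (exact test, adjusted p = 4.8e-23). The usual end of a worm intron, TTTCAG, was in 7.37% against 30.4% (exact test, adjusted p = 2.6e-31). The core promoter box TATAAA was in 5.39% against 17.6% (exact test, adjusted p = 6.3e-13). The word of GATA factors, TGATAA, was depleted too, with 4.21% against 13.7% (exact test, adjusted p = 2.7e-11). So was that of homeodomains, a domain CEH-18 itself has, TAATTA, with 1.84% against 8.49% (exact test, adjusted p = 2.0e-07).

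The POU words were not among these. ATGCAAAT was present at 0.789% of summits (0.29% to 1.71%) against 1.38% of flanks (exact McNemar test, adjusted p = 0.482) and 1.31% of other promoters. ATGCA, the core of the octamer and so found wherever ATGCAAAT is, was at 20.5% against 19.6% (exact test, adjusted p = 0.482). The test also did not pass for the AP-1 word (TGACTCA), the FOX word (TGTTTAC), the T-box word (AGGTGT) and the ETS word (CCGGAAGT).

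Base composition moved with all of these words. The median GC content within 75 bp was 48.3% at the summits, 34.4% and 35.1% in the flanks and 33.8% in the other promoters, and its part in the word counts was not tested. Words of the same letters give a measure that shares the composition. Of the 19 other words that can be made from the letters of GAGAGA, the median was at 15% of summits against 6.58% of flanks, and the highest, a shifted GA repeat, at 37.6%. Of the 559 other words with the letters of CTGCGTCT, the median was at 0.395% of summits, and the highest at 14.5%. GAGAGA and CTGCGTCT were each the most frequent of their set at the summits, a rank that is not independent of their choice.

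Where present, both words sat close to the summit, although the search up to 75 bp itself limits these distances. The nearest GAGAGA was a median of 26 bp away, and in 49.5% of the members that have it within 25 bp. For CTGCGTCT the median was 27 bp and the share within 25 bp was 47.5%. The same values were 29 bp and 44.1% for GGGCGG. They were 46 bp and 25.2% for TTTTTT, which was less frequent at the summits. GA repeats were mostly short, since a GA run of at least 10 bases was present in 46 members (6.05%), against 4 flanks at lower coordinates. The longest, 46 bases, was at T22C1.11, followed by efa-6 with 27 and mrpl-15 with 25.

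**Figure D1:**
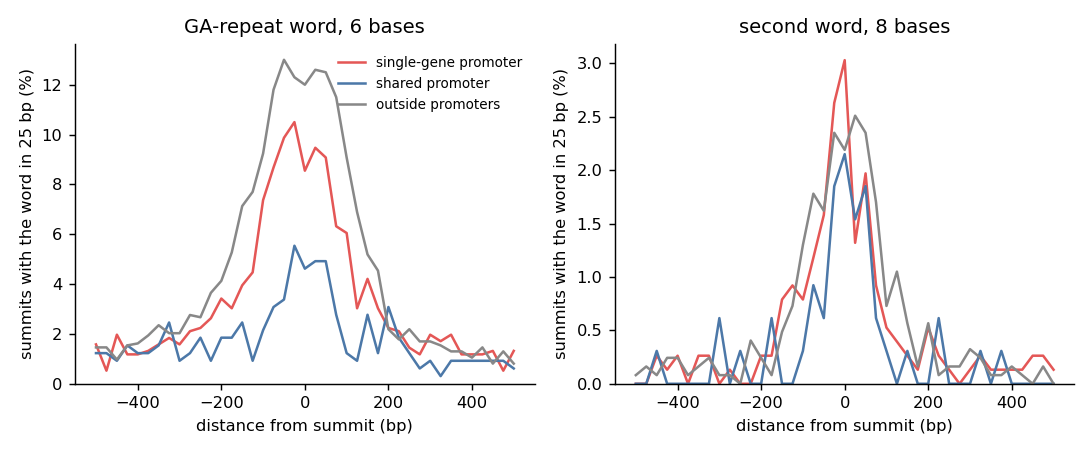
Percent of summits with the GA-repeat word (left) or the second, 8-base word (right) in windows of 25 bp, by distance from the summit in bp, for summits in single-gene promoters (760), in shared promoters (325) and outside promoters (1234). All lines have their maximum near the summit, and for the GA repeat the line of single-gene promoters, 10.5% at 25 bp to the left of the summit, lies there between those of the other classes.

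At the member summits the words also leaned to 1 strand of the gene. No strand counts from flanks or other promoters are set beside these, so the lean may not be particular to the summits. Among members with GAGAGA on 1 strand only, 194 had TCTCTC on the sense strand and 100 had GAGAGA, so that 66% (60.3% to 71.4%, exact binomial) read as the pyrimidine run, and 37 members had both. TTTTTT leaned the same way, with 144 members against 56 for AAAAAA. CTGCGTCT was on the sense strand in 76 members and AGACGCAG in 42, while for GGGCGG the complement CCGCCC was more frequent, in 58 members against 29. Both GAGAGA and CTGCGTCT were present at 69 summits, within 8 bases of each other at 23, only GAGAGA at 262, only CTGCGTCT at 51 and neither at 378 (49.7%).

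Summits in shared promoters and outside promoters differed from the members in a few words. Against shared promoters 4 of the 16 words passed Fisher's exact test (two-sided), which is 25%. GAGAGA was more frequent at the members, 43.6% against 27.4% (exact test, adjusted p = 3.6e-06). Less frequent were TTTTTT, with 28.7% against 46.2% (exact test, adjusted p = 6.7e-07), TTTCAG, with 7.37% against 14.8% (exact test, adjusted p = 0.00148), and ATGCA, with 20.5% against 28% (exact test, adjusted p = 0.036). The call for ATGCA was lost with either other promoter window, with words within 50 bp and with summits within 300 bp upstream only (exact test, adjusted p = 0.138, 0.0973, 0.0835 and 0.591). The call for TTTCAG was lost on the peaks of replicate 1 alone (exact test, adjusted p = 0.0501). It was lost too on the stronger part of the list (exact test, adjusted p = 0.419). With summits within 300 bp upstream only it was lost as well (exact test, adjusted p = 0.08). CTGCGTCT, at 15.8% against 10.8% (exact test, adjusted p = 0.0952), passed on the peaks of replicate 2 alone (exact test, adjusted p = 0.023). Against summits outside promoters 3 words passed, which is 18.8%. GAGAGA was less frequent at the members (43.6% against 54.5%, exact test, adjusted p = 3.2e-05), so that the members lay between the other classes. TGATAA was less frequent (4.21% against 7.94%, exact test, adjusted p = 0.00811) and GGGCGG more frequent (12.2% against 8.43%, exact test, adjusted p = 0.036). The call for TGATAA was lost on the peaks of replicate 1 alone (exact test, adjusted p = 0.422). It was lost too with the window of 500 bp upstream to 100 bp downstream (0.159) and on the stronger part of the list (0.0522). That for GGGCGG was lost on the peaks of either replicate alone (exact test, adjusted p = 0.227 and 0.491). It was lost too with either other promoter window (0.313 and 0.289) and on the stronger part of the list (0.586). With words within 50 bp or 100 bp it was lost as well (0.0998 and 0.169). It was kept only with 1 summit per interval (exact test, adjusted p = 0.0199). Median GC content was 45% at shared and 47.7% at outside summits, and its part in these differences was not tested.

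GAGAGA had higher shares in groups of stronger members. In 4 groups of 190 members from low to high signal its share was 35.3%, 43.2%, 45.8% and 50%, while for CTGCGTCT the shares were 17.9%, 14.2%, 17.9% and 13.2%, with no order. Members with GAGAGA had a median signal of 179 and those without it 165. In replicate 1 the medians were 93.1 and 80.5, and in replicate 2 they were 89.3 and 87.8, so the separation was seen mostly in replicate 1. No test was made of this, since summits are not replicates.

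Member summits lay close upstream of the 5′ end. The median was 278 bp upstream, with quartiles at 500 and 140 bp, and 720 of the 760 (94.7%) lay upstream. Set against the sequence that met the same rule (19.1 Mb, 19% of the genome, eligible sequence below), the density was highest between 200 and 100 bp upstream, at 98.2 summits per Mb (95% exact Poisson interval 83.2 to 115). It was 60.4 per Mb in the last 100 bp before the 5′ end and 15.7 (10.2 to 23.2) in the first 100 bp after it. Far upstream, between 1000 and 900 bp, it was 19.7, and over all the window 39.9. These intervals cover counting error only. Signal followed neither the density nor the distance. Its median was 166 in the densest interval and 184 in the farthest one. It was 154 at -900 to -800 bp and highest, 198, at -400 to -300 bp.

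**Figure D2:**
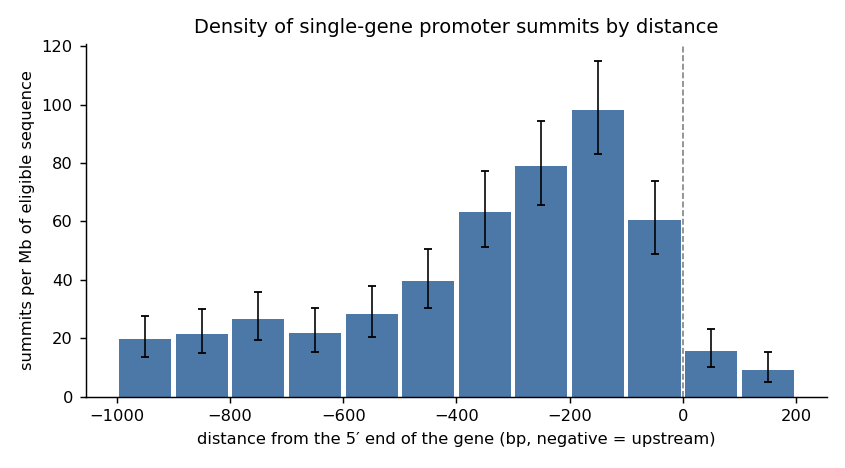
Summits per Mb of eligible sequence (bars) in intervals of 100 bp by distance from the 5′ end of the gene in bp, negative upstream, with 95% exact Poisson intervals. The density rises to 98.2 between 200 and 100 bp upstream and falls to 15.7 just past the 5′ end, which is the dashed line.

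The limits of the window cut a continuous series. The members nearest inside were those of pck-1, 999 bp upstream (signal 208), algn-10, 994 bp upstream (133), M60.4, 193 bp downstream (161) and erp-44.1, 199 bp downstream (179). Just outside lay summits of pbrm-1 and fbxb-58, both 1001 bp upstream (137 and 476), T09B4.3, 202 bp downstream (236) and R08C7.11, 211 bp downstream (144).

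Most member summits were outside any annotated exon. Intergenic sequence held 670 (88.2%), although it made up 56.9% of the eligible sequence. Coding exons held 6 (0.789%) on 21.3% of that sequence, untranslated exons 39 (5.13% on 8.71%) and introns 45 (5.92% on 13.1%). Of the intronic summits, 40 lay in an intron of another gene, such as that of eat-16.

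X was the chromosome richest in such summits. It held 199 members (26.2%) on 15.4% of the eligible sequence, a density of 67.7 per Mb (95% exact Poisson interval 58.6 to 77.8) against 34.8 (32 to 37.8) on the autosomes together. The next highest, chromosome I with 48.2 (40.2 to 57.4) and III with 45.2 (37.1 to 54.5), had intervals below that of X, and V was lowest with 23.1 (19 to 27.9). Counted by gene, 6.9% of X-linked genes with eligible sequence had a member against 3.13% of autosomal ones. Of the 325 summits in shared promoters, 13 (4%) were on X, but how much of the shared-window sequence lies on X was not counted. Members on X also had a higher GC content, 51% against 47%, and a median signal of 183 against 168, while the share with GAGAGA was 46.2% against 42.6%.

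**Figure D3:**
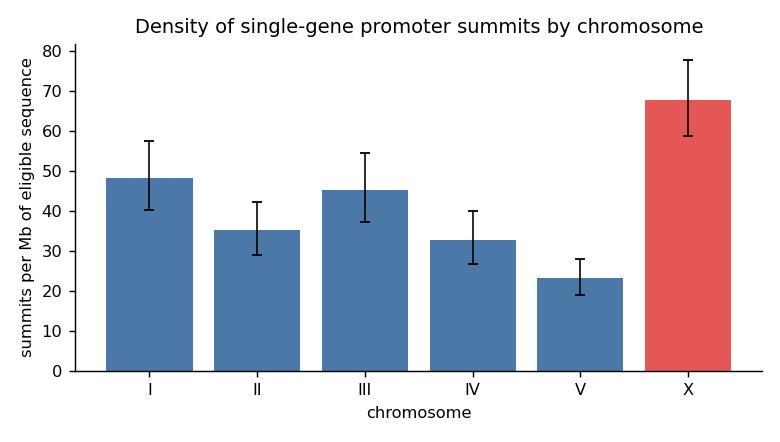
Summits in single-gene promoters per Mb of eligible sequence (bars) for each nuclear chromosome, with 95% exact Poisson intervals. X, in red, has 67.7 per Mb, above the intervals of all autosomes, of which V is lowest with 23.1.

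The replicates listed almost all members. A peak of replicate 1 overlapped 756 of the 760 (99.5%) and 1 of replicate 2 overlapped 758 (99.7%), and when only as many of the strongest peaks as the thresholded list has were used, 678 (89.2%) and 686 (90.3%) were overlapped. The thresholded list was drawn from both replicates, so this overlap is not independent of the choice. Median signal was 86.1 in replicate 1 and 88.4 in replicate 2, and the medians of shared-promoter summits (83.3 and 95.1) and outside summits (87.3 and 84.1) were close to these. Over the 754 members with a peak in both, Spearman's rho of the signals was 0.697 and Pearson's r of their log2 values 0.75, as a description of regions of the same libraries that were all chosen for high signal. After centring on the medians of all thresholded summits, the signals of 731 members (96.9%) were within 2-fold of each other.

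A few members stood apart. At xnp-1, a chromatin remodeller related to ATRX, the signal was 20 in replicate 1 and 91.4 in replicate 2. The largest gaps the other way were at the weaker summits of genes with a pair of members. At hlh-11, which encodes a basic helix-loop-helix factor, the weaker summit had 132 and 24.3, while the stronger, 201 bp away, had 251 and 203. At Y59A8B.24 the weaker had 136 and 29.5, and the stronger, 203 bp away, had 231 and 235. At F46H5.2 the weaker had 242 and 23.1 and the stronger 242 and 236, since the same peak of replicate 1 was matched to both. At hlh-11 and Y59A8B.24 the strong summit thus had a matched peak of its own in both replicates. At F46H5.2 these values do not show which of the summits the peak of replicate 1 marks. No peak of replicate 2 overlapped the members of T26E3.4 and F21C10.7, and none of replicate 1 those of rgs-1, rom-4, K02E2.11 and C14A11.9.

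**Figure D4:**
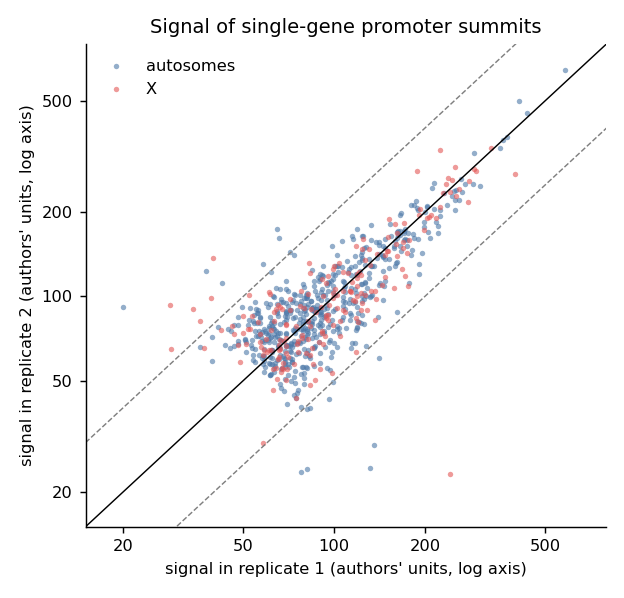
Signal of each member in replicate 1 and in replicate 2, in the authors' units on log axes, for the 754 members with a peak in both, with X in red and autosomes in blue. The solid line is equality and the dashed lines are 2-fold apart from it; most points lie between the dashed lines and the highest, at 584 and 646, is K12H4.5.

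The strongest members were next to genes of varied function. The highest signal, 1223, was 522 bp upstream of K12H4.5, with 584 in replicate 1 and 646 in replicate 2. That of cdc-48.1, an AAA ATPase that extracts ubiquitinated proteins, had 411 and 500.4. That of ftt-2, a 14-3-3 protein, had 398 and 275. Replicate 2 was the higher for the first of these and for cdc-48.1, and replicate 1 for ftt-2. Of the 20 strongest members, 9 were on X, 10 had GAGAGA and 1, nhr-1, had CTGCGTCT. Over all 760 members the shares were 26.2%, 43.6% and 15.8%.

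Signals of 503 to 693 were found at the other members of this group. They included Y39E4B.6 (693), the PUF-family RNA-binding protein gene puf-9 (671), the constitutive HSP70 gene hsp-1 (615), ain-1, a GW182 protein of microRNA silencing (573), and bet-2, a bromodomain protein (559). Also in it were nspc-17 (558), sor-1 (543), the salt-inducible kinase gene kin-29 (541), Y97E10AR.1 (539.6) and spc-1, the alpha-spectrin (535). The last were eat-16, a regulator of G-protein signalling (520.3), the ubiquitin ligase gene eel-1 (518), the nuclear receptor gene nhr-1 (509) and serp-1.1 (503). The median position of the 20 was 410.5 bp upstream, farther than the 278 bp of all members.

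Genes of known function were counted in 49 lists, and each count is to be read against the whole genome. Of 19973 protein-coding genes, 718 had a member, which is 3.59%, or 3.66% of the 19638 with eligible sequence, and 654 had a summit in a shared promoter, which is 3.27%. No enrichment test was made, since the lists were chosen with results known.

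Structural genes of body wall muscle had the highest share of the lists described here. Of 50 genes, 20 (40%) had a member, and 3 had a shared-promoter summit. The signals ran from 122 to 486, with a median of 253 against 172 for all members. The thick filament was represented by the myosin heavy chain genes myo-3 (264) and unc-54 (241), the paramyosin gene unc-15 (274) and the light chain genes mlc-1, mlc-2 and mlc-3 (231, 391 and 231). The thin filament was represented by the actin genes act-1, act-2, act-3 and act-4 (288, 146, 376 and 169.8), the troponin T genes tnt-2 and mup-2 (486 and 325) and the troponin I gene unc-27 (229).

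The attachments that join the contractile lattice to the membrane were there as well. They were unc-112, which encodes a kindlin (448), the integrin gene pat-3 (161), the parvin gene pat-6 (138), unc-97, a LIM protein of the PINCH family (158), and unc-95, another LIM protein (122). The giant kinase protein gene unc-89, of the M-line, had 321, and unc-23, a chaperone cofactor, had 282 at a summit 7 bp downstream of its 5′ end. For the strongest, tnt-2, the signal was 235 in replicate 1 and 252 in replicate 2, and for unc-112 it was 236 and 213. Of the 20 genes, 7 were on X, 8 had GAGAGA and none had CTGCGTCT. Among all members the shares were 26.2%, 43.6% and 15.8%.

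The stretch under the summit of unc-112 is shown because it is the strongest of this list outside X, and it holds neither word.
unc-112, chrV:14697073-14697173, minus strand: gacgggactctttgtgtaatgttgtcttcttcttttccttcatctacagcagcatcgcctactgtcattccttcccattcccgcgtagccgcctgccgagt

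Genes that move calcium in contractile cells were found next to these. Of 20, 5 (25%) had a member and none a shared-promoter summit, but with a window of 500 bp upstream to 100 bp downstream the number was 3. They were sca-1, the calcium pump of the sarcoplasmic reticulum (301, with 162 in replicate 1 and 88.3 in replicate 2), csq-1, a calsequestrin (202), cal-1, a calmodulin-like protein (181), ncx-2, a sodium-calcium exchanger (173), and crt-1, calreticulin (168). Of 20 muscle and mesoderm transcription factors, 4 (20%) had one. They were hlh-1, the MyoD homologue (212, with 90.1 and 120.1), unc-37, a Groucho corepressor (199.9), the MADS-box gene mef-2 (162) and the T-box gene tbx-2 (127).

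RNA-binding regulators and heterochronic genes, which set the timing of development, had similar shares. Of 37 PUF and other RNA-binding regulators, 9 (24.3%) had a member and 2 a shared-promoter summit, led by tos-1 (746), puf-9 (671), vig-1, a component of the RNA-induced silencing complex (358), and cgh-1, a DEAD-box helicase (271). Of 18 heterochronic genes, 4 (22.2%) had one, and 2 with the window of 500 bp upstream to 100 bp downstream. These were puf-9 and ain-1, both described above, lin-14 (293, with 149.9 in replicate 1 and 145 in replicate 2) and lin-28 (129.5, with 66.3 and 61.7).

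Genes active in all neurons were also represented. Of 40, 9 (22.5%) had a member and 1 had a shared-promoter summit. With a window of 1500 bp upstream to 300 bp downstream, 15 had a member. GAGAGA was at 7 of the 9, and at 43.6% of all members. The strongest were unc-76, of axonal transport (423, with 225 in replicate 1 and 203 in replicate 2), the liprin gene syd-2 (372), unc-14 (370.0) and maco-1, macoilin (219). Of 45 neuronal transcription factors 4 (8.89%) had one, and 2 on the peaks of replicate 2 alone or with the window of 500 bp upstream to 100 bp downstream. They were lin-14, cebp-1 (277), ceh-20 (131) and lin-11 (118), the last in a coding exon 93 bp downstream.

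Ribosomal protein genes were divided between the classes of summit. Of 47 genes of the large subunit, 7 (14.9%) had a member and 21 (44.7%) a shared-promoter summit, and of 31 of the small subunit 5 (16.1%) and 16 (51.6%). The class of a summit depends on the window and on the spacing of genes. With the window of 500 bp upstream to 100 bp downstream, 10 large-subunit and 7 small-subunit genes had a member. With that of 1500 bp upstream to 300 bp downstream the numbers were 7 and 3. The median gap to the next gene upstream was 2279 bp for genes with a member and 1190 bp for all genes with eligible sequence. Its part in the shares of the lists was not tested. The members were led by rpl-3 (436 in replicate 1 and 452 in replicate 2), rpl-35 (363 and 363), rps-24 (250.3 and 238), rpl-11.2 (151 and 146) and rpl-24.2 (106 and 158). Only for the last of these was the signal of replicate 2 well above that of replicate 1. The CCT chaperonin, which folds actin and tubulin, had a member at 0 of 8 genes, and 5 of them had a shared-promoter summit. With the window of 500 bp upstream to 100 bp downstream, 1 CCT gene had a member.

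**Figure D5:**
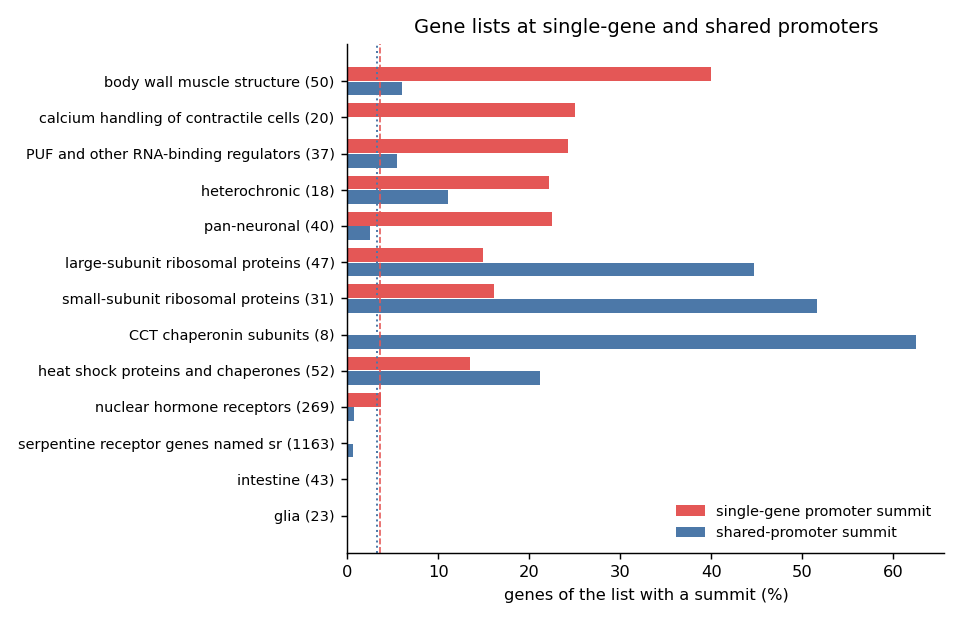
Percent of the genes of each list with a summit in a single-gene promoter (red) and in a shared promoter (blue), with the number of genes in brackets and the percent over all protein-coding genes as a dashed red and a dotted blue line, 3.59 and 3.27. Body wall muscle structure has 40% in red and little blue, and the ribosomal lists have more blue than red.

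Other genes of protein homeostasis and energy metabolism had intermediate or lower shares. Mitochondrial ribosomal proteins had 4 of 70 (5.71%), proteasome subunits 2 of 33 (6.06%) and aminoacyl-tRNA synthetases 2 of 31 (6.45%). For glycolysis it was 1 of 19 (5.26%), or 3 with the window of 1500 bp upstream to 300 bp downstream. Shared-promoter summits were at 21.2% of chaperones, 17.9% of respiratory chain genes, 21.1% of translation factors and 3.33% of ubiquitin conjugation genes. Of 52 heat shock proteins and chaperones, 7 (13.5%) had a member, with hsp-1, the endoplasmic reticulum chaperone gene hsp-3 (258), dnj-9 (192) and dnj-5 (188) the strongest. Of 60 genes of ubiquitin conjugation, 7 (11.7%) had one, with cdc-48.1, ubc-3 (299), ufd-2 (223) and ubc-25 (175). Of 39 of the ATP synthase and respiratory chain, 4 (10.3%) had one, led by the cytochrome oxidase genes cox-5B (489) and cox-5A (409.5). Of 38 translation factors the number was 4 (10.5%), or 7 with the window of 500 bp upstream to 100 bp downstream, with eef-1A.2 (281) and eif-3.B (246) the strongest.

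Genes of the tissues for which ceh-18 is known had shares between 6.9% and 10.7%, above the 3.59% of all genes, on 2 or 3 genes each. These shares were not particular to those tissues. The tubulins had 1 of 16 (6.25%), the TGF-beta pathway 2 of 22 (9.09%) and the basement membrane list 2 of 20 (10%). Other lists were lower, such as the other homeobox ceh genes with 1 of 57 (1.75%). Of 29 genes of the somatic gonad and sheath, 2 (6.9%) had a member. They were gsa-1, a stimulatory G protein (372, with 205 in replicate 1 and 170.1 in replicate 2), and mup-2, which is also in the muscle list. Of 28 genes of epidermal junctions there were 3 (10.7%), spc-1, the beta-spectrin gene unc-70 (205) and the alpha-catenin gene hmp-1 (144), but 1 with the window of 500 bp upstream to 100 bp downstream. Of 24 epidermal transcription factors there were 2 (8.33%), tlp-1 (159.7) and rnt-1 (146). These are counts of genes by position, in whole embryos, and say nothing of the tissue in which the protein was bound.

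Large families of the worm genome had shares at or below that of all genes. Of 269 nuclear hormone receptor genes, 10 (3.72%) had a member, close to the background, the strongest being nhr-1, nhr-48 (409.9), nhr-3 (277) and nhr-49, a regulator of fat metabolism (202). None of 1163 serpentine receptor genes named sr and none of 315 F-box genes named fbx had one, although 1 and 2 fbx genes did on the peaks of replicates 1 and 2 alone. The numbers were 2 of 237 C-type lectin genes (clec-149 and clec-53), 1 of 156 collagens named col (col-55) and 1 of 140 neuropeptide and insulin-like peptide genes (ins-39), all 0 with the window of 500 bp upstream to 100 bp downstream. On the peaks of replicate 1 alone, 1 clec gene and 0 col genes had one. Of the tissue lists, the intestine (43 genes) and glia (23) had none, and the germline (51) had 1, cgh-1, or 2 genes on the peaks of replicate 2 alone and 0 with either other window. None of the 37 genes of the Notch, EGF and Ras pathways and none of the 3 POU homeobox genes had a member.

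The gene of the tagged factor and the marker gene of the strain had no member. The nearest thresholded summit to ceh-18 was 43221 bp upstream, with a signal of 136, and the nearest to unc-119 was 20451 bp upstream, with 120.4. The lists do not show whether reads from the transgene's own copies of these loci were kept or removed.

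Most genes had a single member, and 42 had a pair. All 760 members lay in 748 distinct peak intervals. The members of a pair were at a median of 204 bp from each other (quartiles 201 and 212). Over all thresholded summits no adjacent pair was closer than 199 bp, so this spacing sits at the smallest distance the list holds. In 34 genes the pair was within 250 bp of each other, as at tos-1 (746 and 239.9), bet-2 (559 and 395) and eel-1 (518 and 437). In 8 it was farther apart. At lin-14 the summits were 789 bp apart (293 and 153), and at sgn-1, with the widest spacing, 1013 bp (207 and 174).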

How the data were processed

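Per the labels, ChIP-seq of CEH-18-GFP was done on 2 biological replicates of whole late embryos. Whether they came from separate cultures is not stated, so agreement may in part be technical. The authors deposited narrowPeak lists, 1 per replicate and 1 thresholded by the irreproducible discovery rate over both, on build ce11. The deposited signal of a peak is the authors' own value, on a scale that no label gives. The deposited -log10 q values were tied at their maximum for 571 members, so signal was used to rank. The aligner and caller remain not given in the sources used here. Neither the ce10 lists nor the pooled list was used.

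Summits were annotated with Ensembl release 115 on the sequence of WBcel235, the same build. Replicate values came from the 30000 peaks of replicate 1 and the 21323 of replicate 2. Among those that overlapped the thresholded peak interval by at least 1 bp, the peak with the nearest summit was taken. Overlap, density, annotation and gene lists were described without a test. For 16 words, both strands were searched up to 75 bp from each summit. Summits were compared with the window centred 500 bp away at lower coordinates (exact McNemar test), and with other classes of summit (Fisher's exact test), both two-sided, with Benjamini-Hochberg adjustment over the 16 words of each comparison at 0.05. Flank shares are means of both sides. Summits are not replicates of a condition, so these p-values describe this list.

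Named were the 20 members with the highest signal, up to 4 of each list by signal, those with ATGCAAAT, the nearest to each limit, ceh-18 and unc-119. All 20 muscle genes, the members that differ most between replicates, the pairs, the longest GA runs, the words of the same letters and the stretches with CTGCGTCT were named or added after values were seen. The members, lists and words were chosen with earlier results of these data known. The word tests were run on mock sets of windows from random positions of the same chromosomes, with and without CACGTG planted. These windows were not matched to the GC content of the summits, so the check does not bear on base composition. Calculations used scipy 1.17.1, pandas 2.3.3 and numpy 2.4.6 under Python 3.11.15, and figures matplotlib 3.10.9.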

Additional observations from a re-analysis of the deposited data

How the results depend on the processing

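Alternatives were other promoter windows, other distances to small RNA genes, 5′ ends of all transcripts, 1 summit per interval, the stronger part of the list, each replicate's strongest peaks alone, other word windows and other flanks. No word that passed its test changed direction, while words that did not pass changed sign in some alternatives. Of 160 alternatives for words against flanks, 156 stayed on the same side of the threshold and 4 lost the call, of which 3 concern CACGTG and 1 CANNTG with the flank at 1000 bp (exact test, adjusted p = 0.267). GAGAGA passed in every comparison and alternative run. Against shared promoters 136 of 144 stayed, and against summits outside promoters 117 of 128. With the 1287 strongest peaks there were 379 members and 361 genes, by construction, and 1 word passed against outside summits, as it did with a window of -500 to +100 bp. With summits within 300 bp upstream only, 2 words passed against shared promoters. On the strongest peaks of 1 replicate alone there were 763 members in each, 708 to 718 genes, 3 to 5 words against shared promoters and 1 to 2 against outside summits. Of the 718 genes, 629 (87.6%) and 637 (88.7%) were found again in replicates 1 and 2 alone. On replicate 2 alone, the aminoacyl-tRNA synthetases, pharynx regulators and Hox genes and cofactors each had 0 genes with a member in place of 2. With no read counts, no interval could be given for any signal. No paired analysis was possible because there is 1 group.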

Other observations

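Shared promoters differed from the members in words outside the list tested. Of all words of 6 bases present at over 10% of shared-promoter summits, ACCGTA had the highest ratio to the members, at 16% against 4.34% (flanks of the members 5.33%, summits outside promoters 1.78%). GGCCTA was at 10.2% against 4.61%, with 1.51% in the flanks. Words seen by eye in the strongest stretches were counted as well. TGCGCGC, present in the stretches of tos-1, hsp-1 and Y39E4B.6, was at 4.74% of members against 0.592% of their flanks and at 7.38% of shared-promoter summits, and its share in 4 groups of members from low to high signal was 5.26%, 5.79%, 3.16% and 4.74%. AAGTGT, present in those of rpl-3 and rpl-35, was at 11.4% of members against 7.63% of flanks and in 6 of the 20 strongest. These words were picked after the values were seen, so they are given without a test.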
